A study of Mus musculus with 6 samples.

Results

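The 6 genes described here are the nuclear receptor genes Nr4a1, Nr4a2 and Nr4a3 and the zinc finger genes Egr1, Egr2 and Egr3 of the mouse. They were taken from a count table of 13177 RefSeq transcript accessions by their symbols. Each symbol matched 1 accession, and all 6 accessions passed the filter on low counts that left 8308 accessions for testing. The table came from RNA sequencing of mouse CD4+ T cells, isolated with magnetic beads, into which a synthetic miR-155 oligonucleotide was transferred. There were 3 libraries labelled as collected 8 h after transfection and 3 control libraries labelled as zero hour. Both groups carry the treatment label of the miR-155 oligonucleotide and the cell type label CD4+ T cells, while the descriptions of the 8 h libraries name CD5+ T cells. The sources used here do not give strain, sex, age or pooling of the mice, or any activating stimulus. Time and exposure cannot be told apart, because the series as used here holds no 8 h library without the oligonucleotide.

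Nr4a and Egr genes are immediate early genes, switched on within minutes of a stimulus by transcription factors already present in the cell. In T cells the T cell receptor induces them through calcium and calcineurin and through the Ras and MAP kinase pathway, with CREB, MEF2, NFAT and serum response factor at their promoters. Nr4a1 (Nur77), Nr4a2 (Nurr1) and Nr4a3 (Nor1) are orphan nuclear receptors that bind DNA as ligand-independent activators or repressors and are used as reporters of antigen receptor signalling. Egr1 is a broadly induced activator, whereas Egr2 and Egr3 are best known in T cells for restraining activation and supporting anergy. Nab1 and Nab2 are corepressors that bind Egr proteins.

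Mouse miR-155 is shown because all libraries carry the treatment label of the miR-155 oligonucleotide. The mature strands of mouse miR-155 (RefSeq, GRCm38.p6, plus strand) lie at chr16:84714143-84714165 for the 5p strand and chr16:84714182-84714202 for the 3p strand. The seed, bases 2 to 8, is in capitals. The sources used here do not give the sequence of the synthetic molecule itself.
mmu-miR-155-5p: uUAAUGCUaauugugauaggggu
mmu-miR-155-3p: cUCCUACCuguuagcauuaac

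For each gene, the longest 3' UTR in GENCODE M21 was searched for the 7-base matches of the 5p seed, AGCATTA and GCATTAA. Nr4a3 was the only gene of the 6 with a match, and it held 2 of them in 3095 bases. Nr4a1, Nr4a2, Egr1, Egr2 and Egr3 held none in 543, 1634, 1216, 1200 and 2645 bases. Among 21153 genes with an annotated 3' UTR, 13.1% held at least 1 such match and 3.01% held the 8-base match AGCATTAA. The median length of their longest 3' UTR was 1084 bases, well below that of Nr4a3, and these shares are not matched for length. The Nr4a3 matches are printed with the matching bases in capitals, at chr4:48085663-48085691 and chr4:48086170-48086199 on the plus strand. A match is a description of the letters and not evidence of a working site.
Nr4a3 7-base match: gaataaagtagtactttgGCATTAAtttg
Nr4a3 8-base match: ctagctctgcagaggacaAGCATTAAtgca

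Promoter windows from 250 bases before to 50 after a start site were read from RefSeq (GRCm38.p6) for Nr4a1, Nr4a2, Nr4a3 and Egr2. Egr1 was left out of this search, and no window was available for Egr3. The windows are shown so that the motifs of the Nr4a genes and of 1 start site of Egr2 can be read side by side. All 4 genes averaged higher at 8 h in CPM, but Egr1 and Egr3, which averaged lower, are not among them. The windows therefore cannot be set against the direction of change. Capitals mark the core TGACG of the cyclic AMP response element and its reverse complement CGTCA, the CArG box bound by serum response factor, the MEF2 site, and the EGR site GCGGGGGCG with its reverse complement CGCCCCCGC. Each Nr4a window held 4 copies of TGACG on either strand and the Egr2 window held 2. Of 32851 windows of this length, 20.8% held at least 1 copy and 0.231% at least 4. The full element TGACGTCA, which contains the core, was in none of the 4 windows and in 1.79% of all windows. A CArG box was found in the printed Egr2 window, 72 bases before the start site, and in 1.63% of all windows. At other start sites of Egr2, the windows chr10:67537620-67537919 and chr10:67537680-67537979 overlapped the printed one. Both held the same CArG box and the same 2 copies of TGACG. Windows at the remaining start sites of Egr2 differed. That at chr10:67535249-67535548 held 0 CArG boxes and 0 copies of TGACG. That at chr10:67537316-67537615 held 1 CArG box of other letters and 0 copies of TGACG. A MEF2 site was found in the Nr4a2 window (3.19% of all windows) and GCGGGGGCG in the Nr4a1 window (2.91%). The EGR site GCGTGGGCG (0.612% of windows) and the NR4A element AAAGGTCA (1.51%) were in none of the 4. All motifs were searched on both strands. The windows are chr15:101266596-101266895 for Nr4a1 (plus strand), chr2:57123954-57124253 for Nr4a2 (minus strand), chr4:48045055-48045354 for Nr4a3 (plus strand) and chr10:67537619-67537918 for Egr2 (plus strand), printed in the direction of transcription.
Nr4a1: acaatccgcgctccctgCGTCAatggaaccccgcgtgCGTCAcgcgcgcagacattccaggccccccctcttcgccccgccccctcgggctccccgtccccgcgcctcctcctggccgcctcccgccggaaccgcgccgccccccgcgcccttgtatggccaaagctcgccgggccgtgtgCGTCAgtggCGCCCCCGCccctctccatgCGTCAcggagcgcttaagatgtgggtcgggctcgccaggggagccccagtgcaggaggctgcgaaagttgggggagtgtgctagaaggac
Nr4a2: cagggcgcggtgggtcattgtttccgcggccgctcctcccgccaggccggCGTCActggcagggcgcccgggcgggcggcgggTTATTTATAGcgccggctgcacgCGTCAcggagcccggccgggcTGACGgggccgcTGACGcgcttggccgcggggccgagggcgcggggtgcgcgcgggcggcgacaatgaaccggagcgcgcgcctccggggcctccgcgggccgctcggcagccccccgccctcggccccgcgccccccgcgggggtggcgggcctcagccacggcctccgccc
Nr4a3: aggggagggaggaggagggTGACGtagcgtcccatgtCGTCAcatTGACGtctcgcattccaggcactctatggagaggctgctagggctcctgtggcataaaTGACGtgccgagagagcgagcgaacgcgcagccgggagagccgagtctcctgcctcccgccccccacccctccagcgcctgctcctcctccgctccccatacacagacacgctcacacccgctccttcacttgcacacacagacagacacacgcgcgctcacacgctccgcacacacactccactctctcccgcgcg
Egr2: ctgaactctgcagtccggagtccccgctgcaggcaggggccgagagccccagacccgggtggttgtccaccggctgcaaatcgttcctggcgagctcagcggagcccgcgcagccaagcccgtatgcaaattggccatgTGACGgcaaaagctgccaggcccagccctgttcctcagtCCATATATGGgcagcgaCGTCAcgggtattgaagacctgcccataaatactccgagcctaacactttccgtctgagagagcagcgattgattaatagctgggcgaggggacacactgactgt

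Library totals ran from 6243803 to 13675127 counts at 8 h and from 4564010 to 12303358 counts in controls. The libraries of a group differed widely. Within a group, the highest count of a tested accession was typically (median) 12.6 times its lowest at 8 h and 13.4 times in controls. Counts of Actb (1 to 5 per library) and Gapdh (1 to 11) were far below what T cells usually give, so whether the rows are ordinary counts per gene is uncertain, and this limit applies to every value given here. Of the defining markers, Cd3e had 256 to 4428 counts at 8 h and 704 to 11475 in controls and Cd5 had 5716 to 27651 and 3020 to 14876, but Cd4 had 5 to 9 and 6 to 10 counts, too few for a check of the CD4+ label. The labels do not say whether replicates were separate animals or cultures, so p-values measure the spread between these libraries, which may be technical. In bulk RNA, fewer cells expressing a gene and less RNA per cell cannot be told apart.

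Nr4a1 and Egr1 stood apart from the other 4 genes. For Nr4a1 all 8 h libraries exceeded all controls when library sizes were TMM-scaled, though not when they were total counts. For Egr1 all controls exceeded all 8 h libraries on both scales. Neither gene was called by edgeR. Nr4a2, Nr4a3, Egr2 and Egr3 had overlapping groups. Over all tested accessions, 5.72% had every 8 h library above every control and 5.08% had every 8 h library below, together 10.8%. These shares are for TMM scaling, with which 2 of the 6 genes were separate. With total counts as library sizes 6.23% of accessions were separate and higher at 8 h and 4.65% separate and lower, together 10.9%, and 1 of the 6 genes was separate, Egr1.

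**Figure D1:**
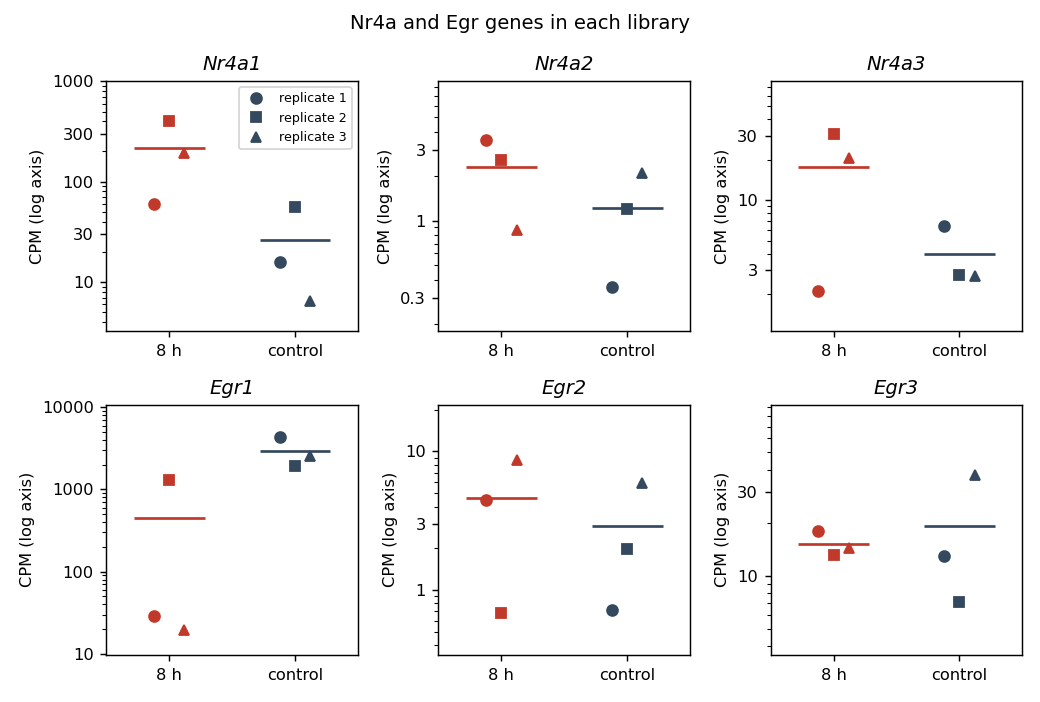
Counts per 1000000 counts (CPM, log axis) of each Nr4a and Egr gene in the 3 libraries at 8 h (red, left) and the 3 control libraries (dark blue, right). Symbols mark the replicate number and horizontal lines the group means. The groups are separate for Nr4a1 on this TMM scale (not with total counts), at 59.9 CPM or more at 8 h and 56.1 CPM or less in controls, and for Egr1, at 1292 CPM or less at 8 h and 1947 CPM or more in controls, and overlap for the other 4 genes.

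The Nr4a receptors are described next. Values are CPM, counts per 1000000 counts, with the deposited counts divided by library sizes scaled with edgeR's TMM method. Nr4a1 (NM_010444, chromosome 15, 101253902 to 101274795, GRCm38) had 59.9, 402 and 193 CPM in 8 h replicates 1 to 3, from 510, 5343 and 1331 counts, against 15.9, 56.1 and 6.48 CPM in control replicates 1 to 3, from 89, 282 and 71 counts. The lowest 8 h library and the highest control lay close together, and with library sizes left as total counts they overlapped, at 59.7 CPM in 8 h replicate 1 and 61.8 CPM in control replicate 2. The separation of Nr4a1 therefore rests on the scaling. The mean was 218 ± 173 CPM at 8 h and 26.2 ± 26.3 CPM in controls (SD, n = 3 each). This gave a log2 fold change of 3.06 ± 1.99 (SE; edgeR adjusted p = 0.67). A two-sided exact permutation test of the mean CPM gave p = 0.1, the smallest that 3 against 3 libraries allows. The estimate was 4.29 without control replicate 2 and 2.27 without 8 h replicate 2.

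Nr4a3 (NM_015743, chromosome 4, 48045078 to 48086447) had 2.11, 30.8 and 20.4 CPM in the 8 h replicates, from 18, 409 and 141 counts, against 6.44, 2.78 and 2.74 CPM in the controls, from 36, 14 and 30 counts. The 8 h replicates 2 and 3 lay above every control, and 8 h replicate 1 lay below every control. Nr4a1 was likewise lowest in replicate 1 among the 8 h libraries and highest in replicate 2. Nr4a3 averaged 17.8 ± 14.5 CPM at 8 h and 3.98 ± 2.12 CPM in controls (SD, n = 3 each). The estimate was 2.16 ± 1.74 on the log2 scale (SE; edgeR adjusted p = 0.745; two-sided exact permutation p = 0.4). Leaving out replicate 1 of the 8 h group or of the controls gave 2.68 and leaving out 8 h replicate 2 gave 1.497.

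Nr4a2 (NM_001139509, chromosome 2, 57106830 to 57124003) was the scarcest of the 6 genes, with 30, 34 and 6 counts in the 8 h replicates and 2, 6 and 23 counts in the controls. These are 3.52, 2.56 and 0.869 CPM at 8 h and 0.358, 1.19 and 2.10 CPM in controls. The groups overlapped, since 8 h replicate 3 was below 2 of the 3 controls. The log2 fold change was 0.90 ± 1.18 (SE; edgeR adjusted p = 0.855; two-sided exact permutation p = 0.3). Depth limits this gene most. The 2 counts of control replicate 1 give 0.310 CPM of the library total, with an exact 95% binomial interval of 0.0375 to 1.12 CPM, which covers counting error only. Leaving out 8 h replicate 1 gave an estimate of 0.48 and leaving out control replicate 3 gave 1.57.

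Summed over the 3 Nr4a genes, the level was 65.5, 436 and 214 CPM in the 8 h libraries and 22.7, 60.0 and 11.3 CPM in the controls. On this TMM scale all 8 h libraries lay above all controls. With total counts as library sizes the sums were 65.4, 423 and 237 CPM at 8 h and 19.7, 66.2 and 10.1 CPM in controls, and 8 h replicate 1 lay below control replicate 2. The sum is mostly Nr4a1, and it carries no test because the genes were chosen with earlier results known.

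Among the Egr genes, Egr1 (NM_007913, chromosome 18, 34861207 to 34864956) was by far the most abundant in the controls, with a mean level higher than that of 98.9% of tested accessions over all libraries. It had 28.6, 1292 and 19.4 CPM in 8 h replicates 1 to 3, from 244, 17162 and 134 counts, against 4296, 1947 and 2553 CPM in control replicates 1 to 3, from 24032, 9793 and 27989 counts. All 8 h libraries lay below all controls, with replicates 1 and 3 far below and replicate 2 close to the lowest control. The groups stayed separate with total counts as library sizes, at 1255 CPM or less at 8 h and 2146 CPM or more in controls. The mean was 447 ± 732 CPM at 8 h and 2932 ± 1219 CPM in controls (SD, n = 3 each). This gave a log2 fold change of -2.71 ± 2.38 (SE; edgeR adjusted p = 0.769; two-sided exact permutation p = 0.1). The estimate was -5.65 with the replicate number as a block and -5.08 by limma-voom. Without 8 h replicate 2 it was -6.93, while leaving out any of the other libraries gave -2.94 to -2.15.

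Egr2 (NM_010118, chromosome 10, 67534469 to 67542188) had 38, 9 and 60 counts in the 8 h replicates and 4, 10 and 65 counts in the controls. These are 4.46, 0.678 and 8.69 CPM at 8 h and 0.715, 1.99 and 5.93 CPM in controls. The lowest values were those of 8 h replicate 2 and control replicate 1, and which was lower depended on the scaling. The log2 fold change was 0.66 ± 1.47 (SE; edgeR adjusted p = 0.931; two-sided exact permutation p = 0.7), and its sign turned without 8 h replicate 3 (-0.18).

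Egr3 (NM_001289925, chromosome 14, 70077317 to 70082613) had 17.96, 13.1 and 14.3 CPM in the 8 h replicates, from 153, 174 and 99 counts, against 13.0, 7.16 and 37.2 CPM in the controls, from 73, 36 and 408 counts. The 8 h libraries lay close together and inside the range of the controls. Their highest count was 1.76 times the lowest, against a median of 12.6 over tested accessions, whereas in controls the ratio was 11.3. The mean was 15.1 ± 2.52 CPM at 8 h and 19.1 ± 15.9 CPM in controls (SD, n = 3 each). The log2 fold change was -0.34 ± 1.69 (SE; edgeR adjusted p = 0.971; two-sided exact permutation p = 1.0), and its sign turned without control replicate 3 (0.58).

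Together, 0 of the 6 genes were called by edgeR at an adjusted p under 0.05, where 0% of the 8308 tested accessions were called, and 0 of the 6 had an unadjusted p under 0.05, where 8.53% of tested accessions did. DESeq2's Wald test called 0 of the 6, against 4.8% of accessions, and 1 of them, Nr4a1, had an unadjusted p under 0.05 (16.5% of accessions). Its adjusted p for Nr4a1 was 0.135, and it gave none for Nr4a2. By limma-voom 0 were called and 1, Egr1, had an unadjusted p under 0.05 (4.81% of accessions). The newer form of edgeR's quasi-likelihood fit called 0 and gave 0 at an unadjusted p under 0.05 (11.9% of accessions). Of the 6 genes 4 had a log2 fold change above 0, and the median was 0.78, against 0.06 over all tested accessions, of which 51.3% were above 0.

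**Figure D2:**
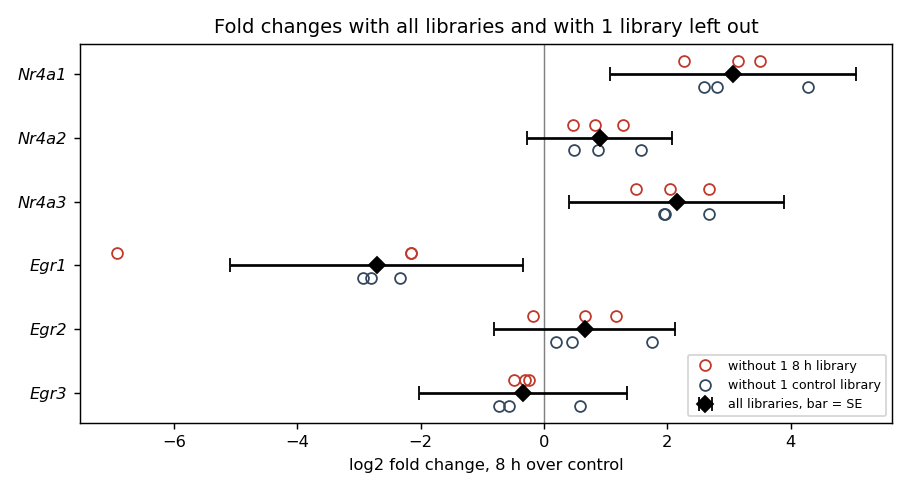
Log2 fold change (8 h over control) of each gene with all 6 libraries (black diamonds, bars are standard errors) and with 1 library of the 8 h group (red circles) or of the control group (dark blue circles) left out. The standard errors lie between 1.18 and 2.38, Egr1 moves to -6.93 without 8 h replicate 2, and the circles of Egr2 and Egr3 lie on both sides of 0.

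Egr1 made up most of the family's counts in every control and in 1 of the 3 libraries at 8 h. It took 24.6% of the summed counts of the 6 genes in 8 h replicate 1 (exact 95% binomial interval 21.9 to 27.4%), 74.2% in replicate 2 (73.6 to 74.8%) and 7.57% in replicate 3 (6.38 to 8.9%). In controls 1 to 3 its share was 99.2% (99.0 to 99.3%), 96.6% (96.2 to 96.9%) and 97.9% (97.7 to 98.1%). Every 8 h library lay below every control. The intervals cover counting error only, and the spread among the 8 h libraries exceeded them many times over. The other Egr genes did not share this pattern, since Egr2 and Egr3 summed to 22.4, 13.8 and 23.0 CPM at 8 h and 13.8, 9.15 and 43.1 CPM in controls.

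**Figure D3:**
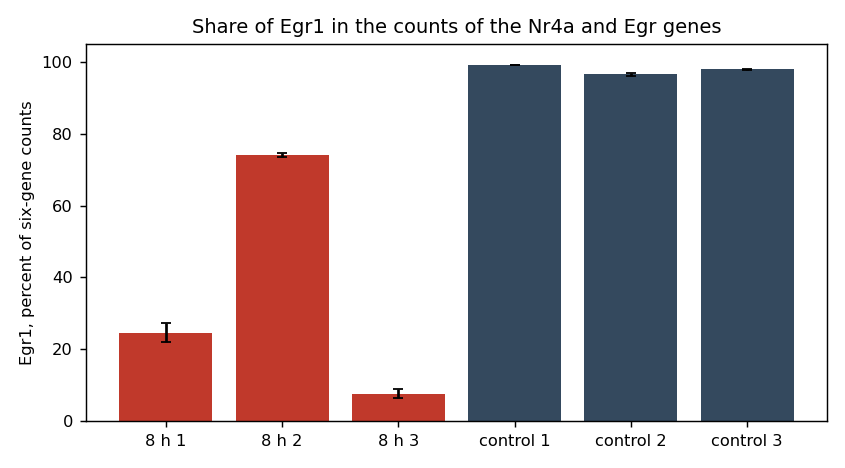
Share of Egr1 in the summed counts of the 6 Nr4a and Egr genes, in percent, in the 3 libraries at 8 h (red) and the 3 control libraries (dark blue). Bars start at 0 and the error bars are exact 95% binomial intervals for counting error, and the shares lie between 7.57 and 74.2% at 8 h and between 96.6 and 99.2% in controls.

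To compare levels between genes, CPM were divided by the length of the longest GENCODE transcript of each gene in kilobases. On this scale of CPM per kilobase the order at 8 h was Egr1 (99.6 ± 163), Nr4a1 (85.5 ± 67.6), Egr3 (3.84 ± 0.64), Nr4a3 (3.11 ± 2.54), Egr2 (1.56 ± 1.35) and Nr4a2 (0.649 ± 0.376; SD, n = 3 for each). In controls the order of the same level was Egr1 (654 ± 272), Nr4a1 (10.2 ± 10.3), Egr3 (4.86 ± 4.04), Egr2 (0.97 ± 0.917), Nr4a3 (0.697 ± 0.371) and Nr4a2 (0.341 ± 0.244; SD, n = 3 for each). Neighbours in these orders had overlapping ranges over libraries, except Nr4a1 and Egr3 at 8 h and Egr1 and Nr4a1 in controls. Nr4a1 was the highest of the 6 in 8 h replicates 1 and 3, whereas Egr1 was the highest in 8 h replicate 2 and in every control. These orders rest on the choice of the longest transcript. With the length of each accession's own transcript, a choice made after seeing the data, Egr3 (1509 bases) stood at 10.0 CPM per kilobase at 8 h and 12.7 in controls, and Egr1 (3036 bases) at 147 at 8 h and 966 in controls. Nr4a1 then had 88.2 CPM per kilobase at 8 h and 10.6 in controls, so that Egr3 preceded Nr4a1 in the controls, while the order at 8 h was the same.

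Each gene was also set against all named accessions with a mean of at least 5 CPM (5999 or 6000 genes) by Pearson's r of log2 CPM over the 6 libraries. With 6 points and so many candidates high values of r arise for any gene, and r includes the difference between groups, so these are descriptions with no test. For Nr4a1 the closest were Btbd1 (r = 0.978), Sipa1l2 (0.972) and Srpx (0.967), and Btbd1 had 23.6, 705 and 376 CPM in the 8 h libraries and 7.33, 63.8 and 3.28 CPM in controls. For Nr4a3 they were Gnb2 (0.992), Rnf25 (0.983) and Trim12a (0.977). For Egr1 they were Fbxo11 (0.985), Rpl26 (0.983) and Col10a1 (0.976), and Fbxo11 had 7.28, 94.9 and 4.35 CPM at 8 h and 134, 60.4 and 129 CPM in controls. For Nr4a2 they were Synpo2 (0.985), Gcgr (0.981) and Rab5if (0.968), for Egr2 Gckr (0.989), Gas2 (0.985) and Cd300a (0.984), and for Egr3 Dip2b (0.993), Serpinb1b (0.989) and Setdb1 (0.989). Within the family r was highest between Nr4a1 and Nr4a3 (0.731) and lowest between Egr1 and Egr2 (-0.658).

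Partners and corepressors come next. Nab2, the corepressor of Egr proteins and itself an Egr target, had 271, 91.3 and 188 CPM in the 8 h libraries and 1.97, 66.6 and 4.56 CPM in the controls. All 8 h libraries lay above all controls, also with total counts as library sizes (88.6 CPM or more against 73.4 CPM or less). Its log2 fold change was 2.91 ± 1.95 (SE; edgeR adjusted p = 0.678). Nab1, the related corepressor, had 5, 6 and 12 counts at 8 h and 14, 16 and 50 counts in controls, and in CPM the 8 h libraries lay below the controls (log2 fold change -1.89 ± 1.28, SE; edgeR adjusted p = 0.685). Nab1 was chosen after its values were seen. Rxrb, a retinoid X receptor of the class that pairs with Nr4a1 and Nr4a2, had 98.4 ± 114 CPM at 8 h and 65.8 ± 82.9 CPM in controls, and Rxrg had 15.1 ± 22.2 and 3.97 ± 1.51 CPM (SD, n = 3 each). Of the 6 genes in this list, which also holds Egr4 and Rxra, 5 were higher and 1 was lower at 8 h. In this list 1 gene was separate and higher and 1 separate and lower, against 5.72% and 5.08% of all tested accessions. None was called (0 by edgeR and 0 by DESeq2), against 0% and 4.8% of all tested accessions. Likewise 0 had an unadjusted edgeR p under 0.05 (8.53% of accessions). The list's median log2 fold change was 0.69, against 0.06 over all tested accessions.

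Other immediate early genes did not share one direction. Of 26 listed, 24 were in the table and 17 were tested, of which 7 had higher and 10 lower values at 8 h with a median log2 fold change of -0.44. By edgeR 0 were called and 1 had an unadjusted p under 0.05 (8.53% of all tested accessions), and DESeq2 called 1 (4.8%). Of the tested genes 2 were separate and lower, against 5.08% of all tested accessions. Nfil3, a basic leucine zipper repressor, had 79.1, 16.0 and 10.3 CPM at 8 h and 4386, 191 and 4953 CPM in controls, with all 8 h libraries below all controls (log2 fold change -6.50 ± 2.83, SE; edgeR adjusted p = 0.535). Jund, an AP-1 subunit, was separate in the same direction, with 233 ± 165 CPM at 8 h and 561 ± 198 CPM in controls (SD, n = 3 each; edgeR adjusted p = 0.893). Ier2, an immediate early nuclear protein, had 97, 21479 and 46 counts at 8 h and 1379, 3870 and 8857 counts in controls, so that 8 h replicate 2 was the highest of the 8 h libraries by a wide margin, as it was for Egr1. Fos, an AP-1 subunit, is like Egr1 induced through serum response elements. It had 689, 32 and 121 counts at 8 h and 385, 385 and 70 counts in controls, and was chosen after its values were seen.

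Regulators upstream of these genes gave no call by edgeR either. Of 33 listed, 32 were in the table but 12 had enough counts for a test, 5 higher and 7 lower at 8 h, and a median log2 fold change of -0.52. Elk4, a serum response factor partner, had 438 ± 593 CPM at 8 h and 702 ± 1126 CPM in controls, and Map2k1, the kinase MEK1, had 383 ± 542 and 491 ± 515 CPM (SD, n = 3 each). Rps6ka1, a kinase downstream of ERK, had 34.9 ± 39.1 CPM at 8 h and 210 ± 330 CPM in controls (SD, n = 3 each). Mapk3, the kinase ERK1, was the list's separate gene, at 8.07 ± 4.67 CPM at 8 h and 138 ± 151 CPM in controls (SD, n = 3 each; log2 fold change -4.10; edgeR adjusted p = 0.555), and was chosen after its values were seen. Of this list edgeR called 0, with 1 at an unadjusted p under 0.05 (8.53% of all tested accessions), and DESeq2 called 1 (4.8%). The 1 separate gene compares with 5.08% of accessions separate and lower. The feedback phosphatases and Sprouty proteins of the MAP kinase pathway had 7 tested genes of 10 listed, 2 with higher and 5 with lower values. Their median log2 fold change was -0.45. Of these 7 genes, 0 were called by edgeR (0% of all tested accessions) or by DESeq2 (4.8%). An unadjusted edgeR p under 0.05 was found for 0 of them (8.53% of accessions). Dusp2, a phosphatase of ERK, had 135 ± 152 CPM at 8 h and 488 ± 765 CPM in controls, Dusp6 had 128 ± 61.4 and 165 ± 122 CPM, and Spred2 had 84.9 ± 73.3 and 24.5 ± 35.8 CPM (SD, n = 3 each).

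Genes reported as targets of Egr2 and Egr3 in T cells split evenly, with 6 higher and 6 lower at 8 h among 12 tested of 17 listed (median log2 fold change 0.63). Dgka, the diacylglycerol kinase tied to anergy, had 292 ± 108 CPM at 8 h and 3468 ± 4325 CPM in controls (SD, n = 3 each; log2 fold change -3.57 ± 2.48, SE; edgeR adjusted p = 0.692). Cdkn1b, the cell cycle inhibitor p27, had 134 ± 80.7 and 860 ± 1429 CPM, and Socs1, a suppressor of cytokine signalling, had 244 ± 212 and 96.6 ± 115 CPM (SD, n = 3 each). The list held 2 genes with separate groups, both higher at 8 h, Nab2 and Il2, where 5.72% of all tested accessions were separate and higher. Il2, the T cell growth factor, had 61.2 ± 14.7 CPM at 8 h and 13.2 ± 10.1 CPM in controls (SD, n = 3 each; log2 fold change 2.22 ± 1.79, SE; edgeR adjusted p = 0.745), and was chosen after its values were seen. Of these 12 genes, 0 were called by edgeR (0% of all tested accessions) or by DESeq2 (4.8%). An unadjusted edgeR p under 0.05 was found for 0 of them (8.53% of accessions). Among genes linked to Nr4a factors in T cells, 11 were tested of 18 listed, 7 of them higher and 4 lower at 8 h (median log2 fold change 0.63). Tnfrsf4, the costimulatory receptor OX40, had 828 ± 1207 CPM at 8 h and 7947 ± 9080 CPM in controls, and Ccr7, a homing receptor, had 1888 ± 3239 and 1485 ± 1957 CPM (SD, n = 3 each). The third gene by mean level was Nfil3, which the immediate early list also holds. By edgeR 0 of the 11 were called and 2 had an unadjusted p under 0.05 (8.53% of all accessions), and DESeq2 called 2 (4.8% of all accessions). In both cases the genes were Nfil3 and Batf, which were lower at 8 h with separate groups (5.08% of all accessions). Batf, an AP-1 family factor chosen after its values were seen, had 33.9 ± 34.9 CPM at 8 h and 1184 ± 768 CPM in controls (SD, n = 3 each; log2 fold change -5.13 ± 2.498, SE; edgeR adjusted p = 0.553).

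**Figure D4:**
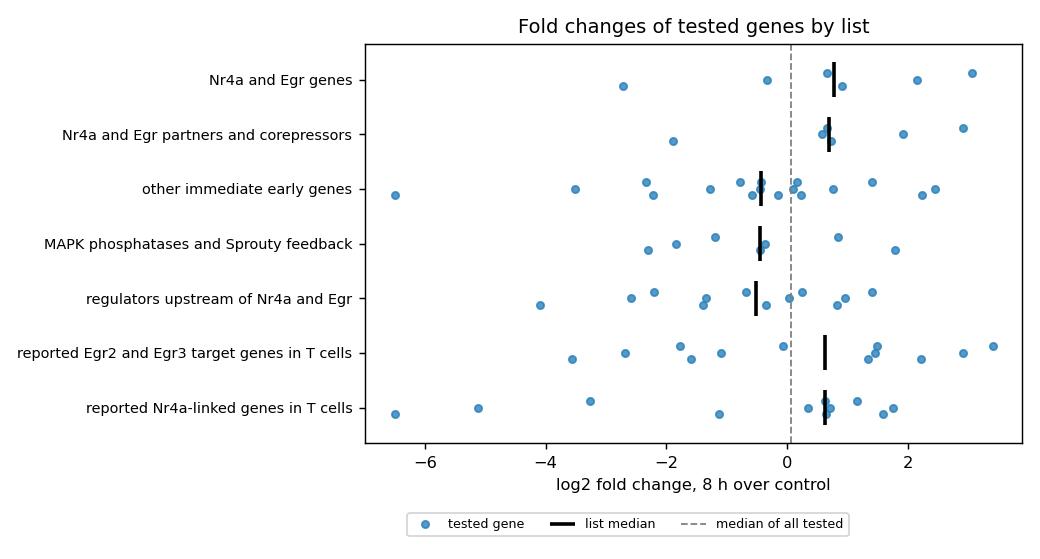
Log2 fold change (8 h over control) of every tested gene in the Nr4a and Egr set and in 6 related gene lists (blue points), with the list median (black bar) and the median of all 8308 tested accessions (dashed line, 0.06). Points of each list lie on both sides of 0, and the medians run from -0.52 for the upstream regulators to 0.78 for the Nr4a and Egr genes.

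Egr1 and Nr4a1 are also expressed by other blood cells, so markers of these were read in the same libraries, as sums of CPM on total counts. Monocyte and macrophage markers (8 of 8 in the table) summed to 13.5 to 23.2 CPM at 8 h and 51.7 to 83.7 CPM in controls. Of the 5 tested, 0 were higher and 5 lower, and 0 were separate between groups (10.8% of all tested accessions). Within the list Csf1r had 0 to 3 counts in every library. A different gene stood out in each control, Adgre1 with 331 counts in control 1, Cd14 with 189 in control 2 and Fcgr1 with 336 in control 3. Of the markers not tested, Itgam and Csf1r averaged higher at 8 h and Lyz2 lower. Itgam had 36, 1 and 7 counts at 8 h and 1, 3 and 1 in controls. Natural killer cell markers (5 of 5, 1 higher and 4 lower) summed to 19.1 to 75.8 CPM at 8 h and 155 to 934 CPM in controls. Gzma gave 239 of 255 CPM in control 2 and 821 of 934 CPM in control 3. Of the 5 genes 2, Gzma and Klrb1c, were separate and lower (5.08% of all tested accessions). By edgeR 2 had an unadjusted p under 0.05 (8.53% of accessions), and DESeq2 called 3 (4.8%). Erythroid and platelet markers (6 of 6, 3 tested, 3 lower) summed to 3.04 to 10.8 CPM at 8 h and 23.4 to 117 CPM in controls. Single libraries weigh on this sum, since Pf4 had 839 counts in control 3 and 0 in controls 1 and 2. Alas2, chosen after its values were seen, was separate, with 0, 1 and 0 counts at 8 h and 13, 42 and 17 in controls. Its edgeR adjusted p of 0.316 was the lowest of all tested accessions. For these 3 sums all controls exceeded all 8 h libraries, as for Egr1, and their part in the Egr1 difference was not tested. B cell markers (6 of 6, 5 tested, 2 higher and 3 lower) summed to 51.3 to 104 CPM at 8 h and 23.7 to 106 CPM in controls. However, Ms4a1, chosen after its values were seen, was separate and higher (5.72% of all tested accessions). It had 37.1 ± 6.66 CPM at 8 h and 3.16 ± 0.531 CPM in controls (SD, n = 3 each), and DESeq2 called it (4.8%). Dendritic cell markers (4 of 5 in the table) summed to 16.2 to 24.0 CPM at 8 h and 19.7 to 97.3 CPM in controls. Of the 2 tested, Flt3 was higher and Itgax was separate and lower (5.08% of all tested accessions). Itgax had 2.30 ± 1.87 CPM at 8 h and 39.7 ± 48.6 CPM in controls (SD, n = 3 each). Its unadjusted edgeR p was under 0.05 (8.53%), DESeq2 called it (4.8%), and it was chosen after its values were seen. Neutrophil markers (4 of 5) summed to 3.52 to 30.8 CPM at 8 h and 3.98 to 52.6 CPM in controls. For CD8 T cell markers (2 of 2) the sums were 12.7 to 60.6 and 8.33 to 34.2 CPM. T cell markers (7 of 8) summed to 4937 to 13655 CPM at 8 h and 2907 to 20766 CPM in controls, with overlapping groups. Single genes weigh on these sums too. Cd3d gave 16200 of 20766 CPM in control 2 and Lck 13174 of 17087 CPM in control 3. Cd3g gave 8646 of 13655 CPM in 8 h replicate 3. The part of these cells in the Nr4a1 difference was not tested.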

How the data were processed

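Raw read counts of 6 TruSeq single-read libraries, as whole numbers in 1 table, were deposited by the authors. The submitters' processing notes name Bowtie, R 3.4.2 and the build GRCm38 without saying what each did. The sources used here do not give the counting program, strand setting or row filter. No other GENCODE M21 gene overlaps any of the 6 genes. Accessions were named through a RefSeq table of GRCm38.p6 (12827) or GENCODE M21 (47), and 303 stayed unnamed. Columns were matched to samples by title, with 0 columns outside the series.

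The whole table was fitted with edgeR 4.0.16 in R 4.3.3 (TMM scaling, filterByExpr, robust quasi-likelihood F test in its default form, group as the only term, two-sided, Benjamini-Hochberg over 8308 accessions, threshold 0.05). Each SE is the size of the log2 estimate divided by √F. CPM use TMM-scaled library sizes unless total counts are named. Alternatives used limma 3.58.1 and DESeq2 1.42.0. Single-gene exact permutation tests used all 20 arrangements. The 6 genes, the lists and the rules were chosen with earlier results of these data known. Named were the 6 genes, the 3 genes most correlated with each, and in each list the called genes or else the 3 with the highest mean CPM. Other genes named were chosen after their values were seen.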

Additional observations from a re-analysis of the deposited data

How the results depend on the processing

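Counts of called accessions and of called Nr4a and Egr genes were 0 with all libraries, and 0 under the replicate block, RLE, upper-quartile and total-count scaling, limma-voom, an unfiltered table, a minimum mean of 5 CPM, the newer quasi-likelihood fit and without each replicate (0 to 0). DESeq2 called 399 accessions, with no adjusted p for 1720, and 0 of the 6 genes. At that minimum, 4 of the 6 genes were tested, without Nr4a2 and Egr2. The log2 fold changes without each replicate ran from 2.27 to 4.29 for Nr4a1, 0.48 to 1.57 for Nr4a2, 1.497 to 2.68 for Nr4a3, -6.93 to -2.15 for Egr1, -0.18 to 1.76 for Egr2 and -0.73 to 0.58 for Egr3. The sign of Egr3 also turned with the replicate block (0.0052) and limma-voom (0.0666), and the cause was not tested. With the block 267 accessions had an unadjusted p under 0.05, against 709 without it. Egr1 stood at -5.65 with the block and -5.08 by limma-voom. Same-numbered libraries had residual correlations of -0.0107, 0.0151 and -0.0039, and not every library correlated best with its own number. With 3 libraries per group these values cannot show whether same-numbered libraries share an animal or culture, which the labels do not say. Mean summed CPM without each replicate ran from 140 to 325 at 8 h and 17.0 to 41.4 in controls for the Nr4a genes, and from 46.8 to 679 at 8 h and 2276 to 3453 in controls for the Egr genes. Low counts limit Nr4a2 and Egr2 most.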
